A study of Homo sapiens with 4 samples.

Results

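The genes described here are members of the p53 transcription factor family, TP63 and TP73, and 29 genes that p53 is known to switch on. They were chosen by symbol, and all 31 listed genes were found among the 48162 genes of the count table. RNA was sequenced from cells labelled MDA-MB-453, a human breast cancer line, in 2 groups of 2 libraries. Cells labelled wild type (WT) were compared with cells labelled TMEM9 KD, in which TMEM9, a membrane protein of lysosomes and endosomes, was reduced. The sources used here do not say how TMEM9 was reduced, whether the TMEM9 KD cells are 1 clone or a pool, or whether the WT cells received a control treatment. Nor do the labels say whether libraries within a group are separate cultures. The p-values therefore reflect library-to-library spread alone, and that spread may be technical.

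p53 is a transcription factor that becomes active after DNA damage and other stress. It binds a response element made of a pair of 10-base units, and the genes it switches on arrest the cell cycle, repair DNA, alter metabolism or start apoptosis. Some of its targets, such as MDM2, shut p53 off again. The relatives p63 and p73 bind the same kind of element. In epithelia such as the breast, p63 is best known for maintaining basal cells and their keratins and adhesion proteins. The gene of p53 itself is not among the members and was not analysed here.

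Depth ran from 15323843 to 18517337 counts per library. TMEM9 was at 74.9 and 83.3 CPM in the WT libraries and at 3.11 and 4.47 CPM in the TMEM9 KD libraries, where CPM is the count scaled to a common library size with TMM factors. The labelled cell line was checked against 15 luminal and apocrine markers. SPDEF, TFAP2B, PIP, KRT19, EPCAM and AGR2 had at most 9 counts in every library, while ERBB2 (53.3 to 63.8 CPM) and KRT8 (264 to 292 CPM) were present. COL1A1 (815 to 1473 CPM) and PDGFRA (142.0 to 244 CPM), which mark fibroblasts, were abundant in all 4 libraries. Other fibroblast markers were low in every library. They were DCN (1.81 to 3.11 CPM), LUM (0 to 1.71 CPM), FAP (4.28 to 8.06 CPM) and COL1A2 (0.0573 to 0.890 CPM). The absent luminal markers go against the identity known for the line, and the series' design text calls the profiles of these cells retinal, which does not match a breast line. The results are therefore of cells labelled MDA-MB-453. Of 6 endothelial markers listed, the 5 found by symbol were near 0 (summed level 0.0669 to 1.26 CPM). PECAM1 was not matched to a single gene and is not in that sum. Summed over 8 fibroblast markers the level was 1128 and 1144 CPM in WT and 1508 and 1672 CPM in TMEM9 KD, with COL1A2 near 0. COL1A1 alone carried that rise, and of the 7 tested 4 were higher and 3 lower, among them PDGFRA (244 to 147 CPM, group means), PDGFRB (52.2 to 43.0 CPM) and THY1 (9.09 to 0.976 CPM). Over 10 leukocyte markers the summed level was 15.4 and 16.1 CPM in WT against 7.33 and 6.65 CPM in TMEM9 KD. Of these markers, CD3E, MS4A1 and LYZ were at 0. Of the 4 tested, 3 were lower, CD14 (7.28 to 1.20 CPM, group means), CD74 (3.43 to 0.0859 CPM) and CSF1R (2.33 to 1.14 CPM). The other, PTPRC, was higher (2.53 to 4.20 CPM). All the tested fibroblast and leukocyte markers passed an adjusted p of 0.05 in the edgeR test described below. So did 57.7% of all genes tested, 28.7% higher and 29% lower. The mitochondrial share of counts was 3.98% in each WT library and 3.18% and 2.83% in TMEM9 KD. The part of these differences in the results below was not tested.

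Where the element lies close to a start site it can be read from the reference. RefSeq promoter sequences (build GRCh38.p14) were found by symbol for 27 of the 31 members, with several start sites for some, giving 38 entries. The 250 bases before each start were searched for the p53 response element, as 20 contiguous bases with up to 3 mismatches and the central C and G of each unit in place. The element reads the same on both strands. It was found in 7 entries (18.4%) of 6 members, TP73, MDM2, PMAIP1, AEN, SESN1 and FDXR, and in 0.914% of all 35116 entries. The members were listed because p53 is known to act on them, so the higher share is a property of the list and not a finding. The matches are shown because they let a reader set the same kind of element beside genes that moved differently in TMEM9 KD. They are printed 5′ to 3′ on the gene's strand, with the element in capitals and flanking bases in lower case, and only the element is printed for FDXR.
TP73 (chr1:3690496-3690655, + strand): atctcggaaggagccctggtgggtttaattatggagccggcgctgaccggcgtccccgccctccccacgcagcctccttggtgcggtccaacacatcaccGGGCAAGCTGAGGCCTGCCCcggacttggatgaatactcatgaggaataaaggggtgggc
MDM2 (chr12:68808823-68808982, + strand): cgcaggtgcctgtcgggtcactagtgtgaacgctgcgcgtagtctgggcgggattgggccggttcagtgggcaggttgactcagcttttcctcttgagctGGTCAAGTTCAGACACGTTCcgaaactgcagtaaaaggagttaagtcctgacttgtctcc
PMAIP1 (chr18:59899746-59899870, + strand): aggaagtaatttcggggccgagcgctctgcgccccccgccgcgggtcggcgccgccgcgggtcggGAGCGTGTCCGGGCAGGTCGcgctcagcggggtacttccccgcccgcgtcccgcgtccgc
AEN (chr15:88621206-88621325, + strand): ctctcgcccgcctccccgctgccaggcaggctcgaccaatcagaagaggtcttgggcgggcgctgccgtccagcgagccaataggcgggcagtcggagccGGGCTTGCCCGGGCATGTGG
SESN1 (chr6:109008989-109009137, - strand): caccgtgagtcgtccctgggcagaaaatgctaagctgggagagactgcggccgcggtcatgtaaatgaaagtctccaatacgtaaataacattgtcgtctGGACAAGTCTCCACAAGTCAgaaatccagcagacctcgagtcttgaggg
FDXR (chr17:74872996-74873015, - strand): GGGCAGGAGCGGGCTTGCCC
The elements of TP73, MDM2 and AEN had 2 mismatches, and those of PMAIP1, SESN1 and FDXR had 3. They began 76 bases before the start of the entry in TP73 (an internal start site), 94 in MDM2, 185 in PMAIP1, 34 in AEN, 49 in SESN1 and 21 in FDXR. Whether the other entries also start inside their genes was not examined here. The other members with an entry, CDKN1A and BTG2 among them, had no match in this window, which says only that these letters are not there. GADD45A, PHLDA3, RRM2B and TP53INP1 had no entry in the table.

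The comparison asks how these genes differ when TMEM9 is reduced. More of them were lower than higher in TMEM9 KD. Of the 31 members, all of which passed the filter on low counts, 18 fell and 7 rose at an adjusted p under 0.05 (edgeR quasi-likelihood test, adjusted over all 14923 genes tested), and 6 were not called. The called share was 80.6%, beside 57.7% of all genes. Over all genes, 28.7% were called higher and 29% lower. At least 2-fold decreases were called for 11 members, beside 10.1% of all genes. No member was called at least 2-fold higher, beside 7.24% of all genes, and 17.4% of all genes were called at 2-fold or more in either direction. The largest increase of a member was 0.85 on the log2 scale (GADD45A). The members' median log2 fold change was -0.43, and that of all genes tested was 0.01. Tested against a change of 1.5-fold, 12 members fell and 2 rose, beside 1692 lower and 1111 higher of the 14923 genes tested. The 12 were RRM2B and the 11 with decreases of at least 2-fold, and the 2 were GADD45A and AEN. The other called members, PERP and PLK3 among them, did not pass that test. In bulk RNA, fewer cells carrying a transcript and less of it per cell cannot be told apart.

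**Figure D1:**
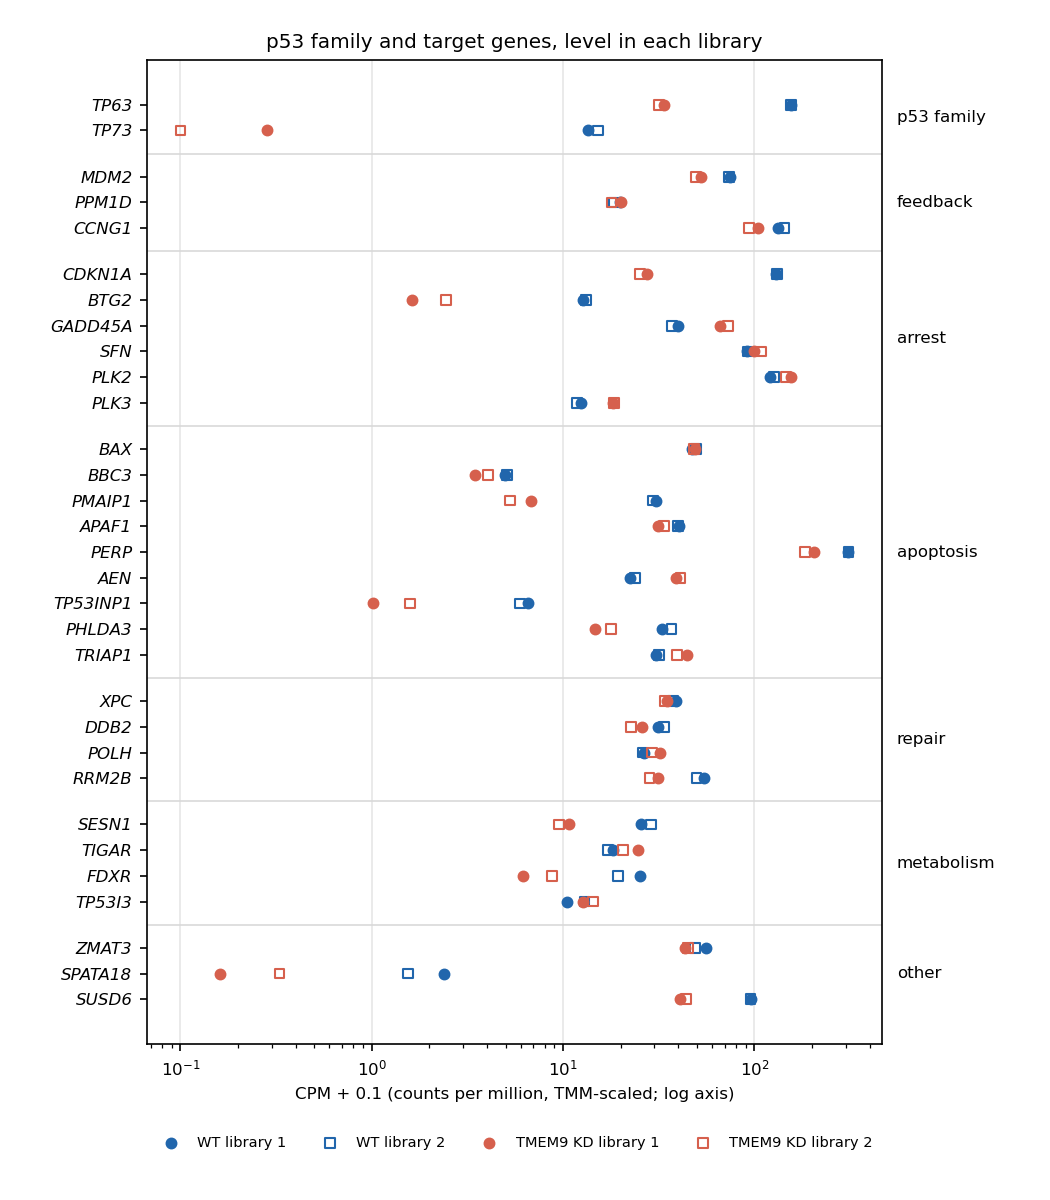
Level of each of the 31 members (rows, grouped by role) in each library, as CPM + 0.1 on a log axis. Filled circles are library 1 and open squares library 2, with WT in blue and TMEM9 KD in red. TP73, BTG2, PMAIP1, CDKN1A and TP63 show wide gaps between the groups, while the points of BAX, PPM1D and TP53I3 overlap.

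The plot of levels by library shows that libraries of a group lay close together beside the larger changes. The groups did not overlap for 28 of the 31 members (90.3%), beside 77.6% of all genes. BAX, PPM1D and TP53I3 were the members whose groups overlapped. In sum, the members held 0.167% of the counts in both WT libraries, and 0.126% and 0.122% in TMEM9 KD.

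The family members TP63 and TP73 both fell. TP63 (ENSG00000073282), which encodes p63, was at 156 and 155 CPM in WT and at 33.5 and 31.5 CPM in TMEM9 KD. Both TMEM9 KD libraries were far below both WT libraries, a ratio of 4.78, with a log2 fold change of -2.26 (SE 0.0771, edgeR adjusted p = 4.26e-46). TP73 (ENSG00000078900), which encodes p73, had 200 and 271 counts in the WT libraries (13.4 and 15.1 CPM). In TMEM9 KD it had 3 counts in library 1 and 0 in library 2 (0.183 and 0 CPM). The ratio of WT to TMEM9 KD was 161 (95% counting interval 54.9 to 785, exact Clopper-Pearson, for counting error only). The fitted log2 fold change of TP73 was -7.21 (SE 0.376, adjusted p = 3.70e-32). It was -10.90 without TMEM9 KD replicate 1, which leaves a group at 0 counts, and -6.23 without TMEM9 KD replicate 2. TP73 shares 633 exon bases with the opposite-strand gene TP73-AS1, which had 1, 1, 4 and 12 counts in WT 1, WT 2, TMEM9 KD 1 and TMEM9 KD 2. Counts per gene do not separate the full-length from the N-terminally shortened forms that both genes are known to make.

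Genes linked to p63 in epithelia fell as well, in a list of 18 that also holds basal markers. Of 16 tested, 11 fell and 3 rose, and the median log2 fold change was -2.63. The called share was 87.5%. Over all genes 57.7% were called, 28.7% higher and 29% lower. KRT14, a basal keratin, was at 12.4 and 17.1 CPM in WT and had no counts in TMEM9 KD, at least 168-fold lower when the TMEM9 KD group is set to 3 counts. CLCA2, a membrane protein of epithelia, fell from 64.2 ± 5.81 to 1.20 ± 0.405 CPM (mean ± SD, n = 2 per group). JAG2, a Notch ligand, fell from 28.7 ± 0.694 to 0.603 ± 0.529 CPM. ITGB4, an integrin subunit of hemidesmosomes, fell from 101.8 ± 0.426 to 2.62 ± 0.620 CPM. FERMT1, an adaptor of integrins, was among those that rose, by 1.11 on the log2 scale, and BNC1 (61.3 to 63.1 CPM over the libraries) was not called. Among 10 basal cell markers, of which KRT5 and KRT14 are in both lists, 5 of 9 tested fell and 1 rose. Their called share was 66.7%, near the 57.7% of all genes. The summed level of these markers was 332.5 and 345.3 CPM in WT and 308.6 and 318.5 CPM in TMEM9 KD, most of it EGFR, and KRT5 and KRT14 were at 0 in TMEM9 KD. Their part in the lower TP63 and TP73 was not tested.

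**Figure D2:**
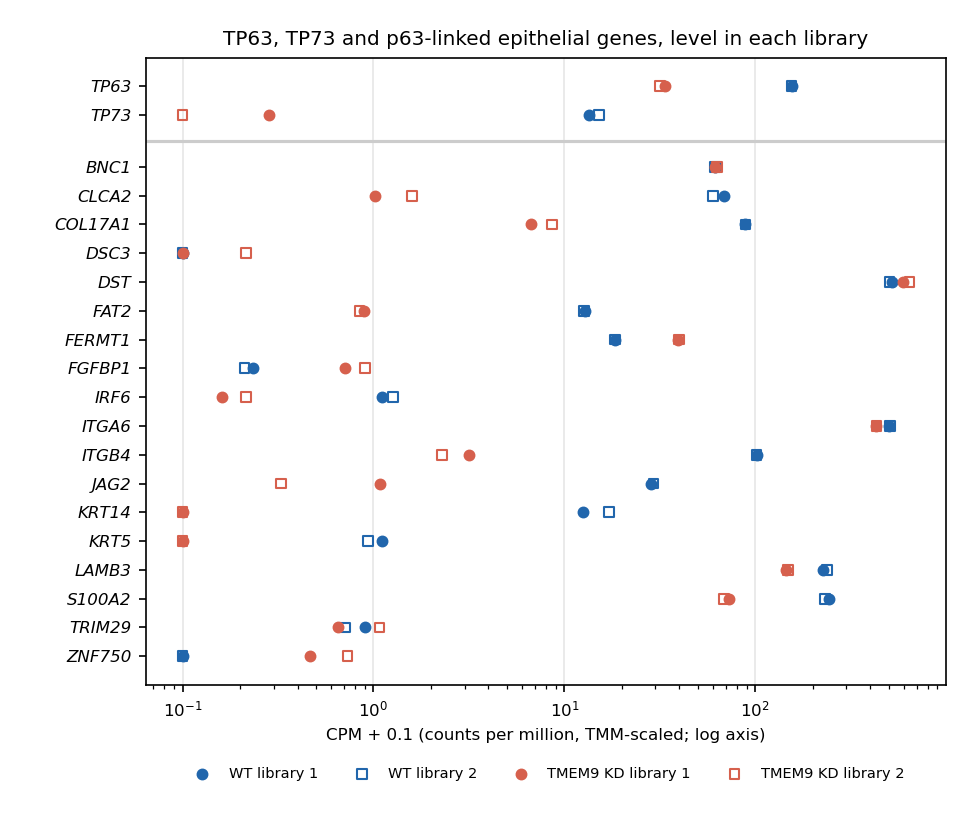
TP63 and TP73 (top) and 18 genes linked to p63 in epithelia (below) in each library, as CPM + 0.1 on a log axis, with WT in blue and TMEM9 KD in red. CLCA2, JAG2, ITGB4, FAT2, COL17A1 and KRT14 fell with the family members, while BNC1 and TRIM29 were not called.

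Among the genes that feed back on p53, MDM2 and CCNG1 fell by less than 2-fold. MDM2 (ENSG00000135679), the ubiquitin ligase that marks p53 for destruction, was at 74.2 and 73.4 CPM in WT and 52.7 and 49.5 CPM in TMEM9 KD (log2 fold change -0.53, SE 0.0799, adjusted p = 1.21e-08). CCNG1, cyclin G1, which is known to act with MDM2, went from 133 and 143 to 104 and 93.3 CPM (log2 fold change -0.49, adjusted p = 2.12e-09). For both genes every TMEM9 KD library was below every WT library, but neither change passed the test against 1.5-fold. PPM1D, a phosphatase that dampens p53 signalling, was at 19.7 and 18.2 CPM in WT and 20.03 and 17.8 CPM in TMEM9 KD. Its groups overlapped, its log2 fold change was -0.0036 (SE 0.123, adjusted p = 0.982), and the sign turned without WT replicate 1 (0.05) or TMEM9 KD replicate 2 (0.07) and with scaling by library size only (0.07).

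Genes of cell cycle arrest went both ways, and all 6 were called, beside 57.7% of all genes. CDKN1A (ENSG00000124762) encodes p21, the inhibitor of cyclin-dependent kinases through which p53 is best known to halt the cycle. It was at 129.6 and 131 CPM in WT and 27.2 and 25.04 CPM in TMEM9 KD. The WT level was 4.98 times that of TMEM9 KD, with a log2 fold change of -2.32 (SE 0.0815, adjusted p = 4.63e-45). BTG2 (ENSG00000159388), an antiproliferative gene, had 188 and 235 counts in WT (12.6 and 13.1 CPM) against 25 and 41 in TMEM9 KD (1.53 and 2.35 CPM). It was 6.62 times higher in WT, with a log2 fold change of -2.71 (SE 0.213, adjusted p = 1.09e-20).

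The other 4 arrest genes rose. GADD45A, which acts in growth arrest and repair, was at 39.7 and 37.0 CPM in WT and 65.7 and 72.7 CPM in TMEM9 KD (log2 fold change 0.85, SE 0.0852, adjusted p = 2.57e-15). It held its call against a change of 1.5-fold (adjusted p = 0.00158). PLK3, a stress-responsive polo-like kinase, rose from 12.2 and 11.7 to 18.1 and 18.4 CPM (log2 fold change 0.61, adjusted p = 5.91e-05). PLK2, a kinase of the same family, was at 121 and 126 CPM in WT and 154 and 146 CPM in TMEM9 KD (log2 fold change 0.28, adjusted p = 0.000168), but it was no longer called without WT replicate 1 (adjusted p = 0.0594). SFN, the 14-3-3 sigma protein that holds back entry into mitosis, was at 91.1 and 91.7 CPM in WT and 99.3 and 107.9 CPM in TMEM9 KD (log2 fold change 0.18, adjusted p = 0.0236). The SFN call was the least firm of these, as it ended without WT replicate 1 (adjusted p = 0.224), WT replicate 2 (0.199) or TMEM9 KD replicate 2 (0.146, log2 fold change 0.11). It also ended with DESeq2 (0.0837) and with no filter on low counts (0.056). Against a change of 1.5-fold, none of PLK3, PLK2 and SFN was called.

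**Figure D3:**
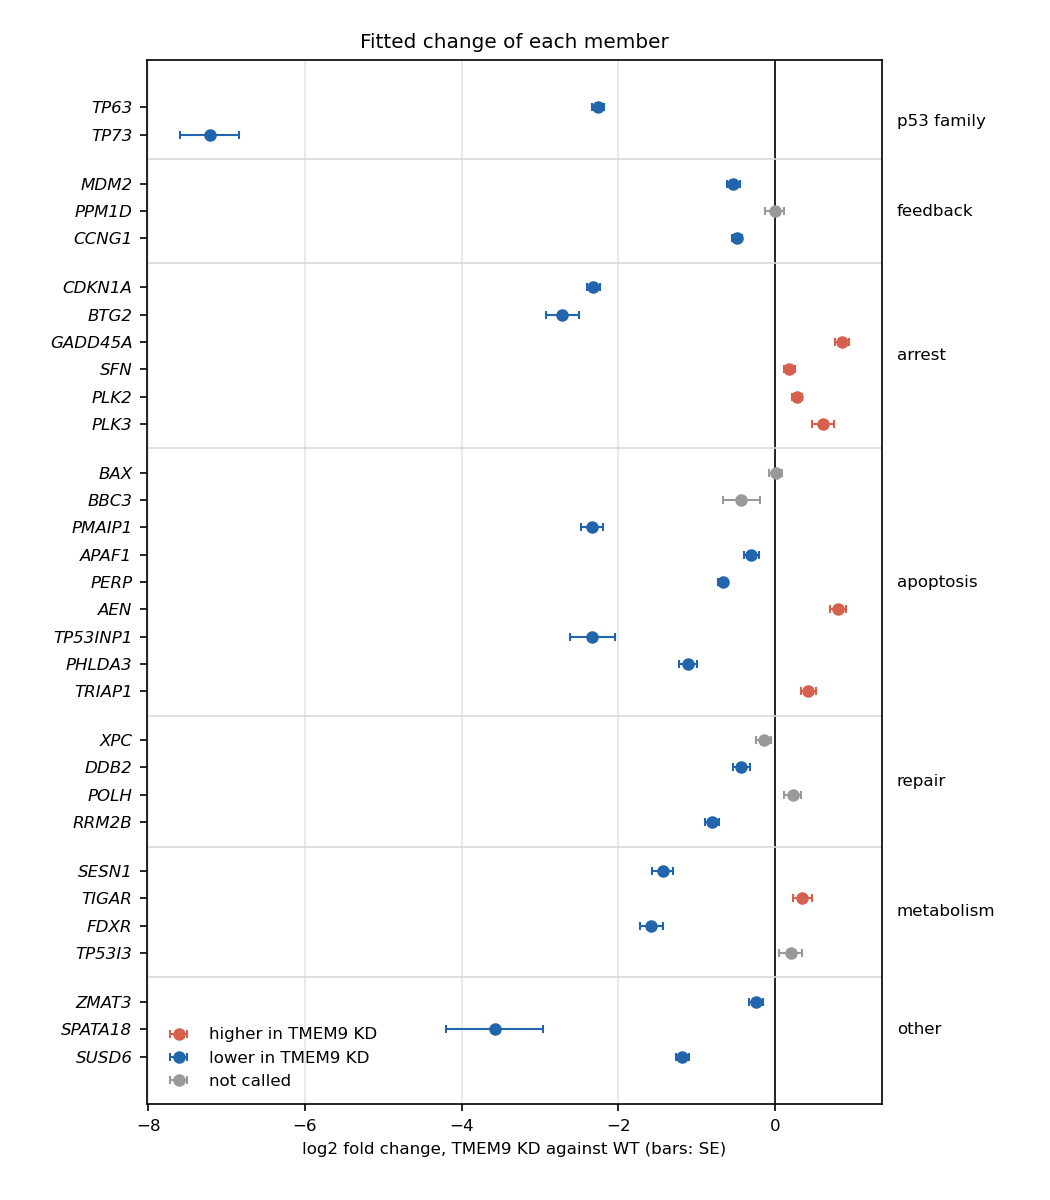
Fitted log2 fold change of TMEM9 KD against WT for each member, with bars of 1 SE on either side, grouped by role. Blue points were called lower (18), red points higher (7) and grey points were not called (6); TP73 (-7.21) and SPATA18 (-3.57) lie farthest left and GADD45A (0.85) farthest right.

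The plot of fitted changes by role shows that the apoptosis genes also went both ways, with 5 of 9 lower and 2 higher. Over all genes, 29% were called lower and 28.7% higher. PMAIP1 (ENSG00000141682) encodes NOXA, a BH3-only protein that opposes survival proteins of the BCL2 family. It was at 30.4 and 29.3 CPM in WT and 6.72 and 5.16 CPM in TMEM9 KD. Both TMEM9 KD libraries were well below the WT libraries, a ratio of 5.02, with a log2 fold change of -2.33 (SE 0.141, adjusted p = 1.25e-27). TP53INP1 (ENSG00000164938), a nuclear protein that promotes p53-driven death and autophagy, had 96 and 105 counts in WT (6.42 and 5.84 CPM). It had 15 and 26 counts in TMEM9 KD (0.916 and 1.49 CPM), for a log2 fold change of -2.33 (SE 0.291, adjusted p = 2.70e-11). PHLDA3 (ENSG00000174307), a repressor of the kinase AKT, fell from 32.9 and 36.7 to 14.6 and 17.6 CPM (log2 fold change -1.11, SE 0.113, adjusted p = 7.32e-15). PHLDA3 shares 598 exon bases with the same-strand transcript AC096677.2, which had 77 and 105 counts in WT and 15 and 33 in TMEM9 KD, so reads of this stretch may have been split.

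Smaller decreases were seen for PERP and APAF1. PERP, a desmosomal protein that is also a p63 target, was the most abundant member by CPM, at 308 and 310.2 in WT and 206 and 184 in TMEM9 KD (log2 fold change -0.67, adjusted p = 1.44e-17). APAF1, the scaffold of the apoptosome, was at 40.1 and 39.7 CPM in WT and 31.1 and 33.6 CPM in TMEM9 KD (log2 fold change -0.30, adjusted p = 0.00492), and was not called without WT replicate 1 (adjusted p = 0.0541). APAF1 shares 750 exon bases with ANKS1B on the opposite strand (130 to 208 counts), and no source used here gives the strand setting of the counting. Rising instead, AEN, a nuclease of apoptotic cells, went from 22.1 and 23.6 to 38.8 and 40.9 CPM (log2 fold change 0.80, SE 0.102, adjusted p = 5.68e-11; against 1.5-fold, adjusted p = 0.0268). TRIAP1, a small inhibitor of apoptosis, rose from 30.5 and 31.6 to 44.0 and 39.4 CPM (log2 fold change 0.42, adjusted p = 8.36e-05).

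The best known effectors of p53-driven death, BAX and BBC3, were not called. BAX, which opens the outer mitochondrial membrane, was at 47.0 and 49.3 CPM in WT and 48.5 and 48.4 CPM in TMEM9 KD. BAX had a log2 fold change of 0.01 (SE 0.0861, adjusted p = 0.952), which turned to -0.03 without WT replicate 1. BBC3, which encodes the BH3-only protein PUMA, was at 4.88 and 5.01 CPM in WT and 3.36 and 3.95 CPM in TMEM9 KD. The groups of BBC3 did not overlap, but at 55 to 90 counts per library its log2 fold change of -0.43 (SE 0.237) did not pass the test (adjusted p = 0.109).

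Of the 4 repair genes, RRM2B and DDB2 fell, a called share of 50% beside 57.7% of all genes. RRM2B, a ribonucleotide reductase subunit that supplies nucleotides for repair, was at 54.2 and 49.7 CPM in WT and 31.2 and 28.2 CPM in TMEM9 KD (log2 fold change -0.81, SE 0.0932, adjusted p = 1.60e-12). It also passed the test against 1.5-fold (adjusted p = 0.0144). DDB2, which recognises ultraviolet damage, went from 31.2 and 33.7 to 25.8 and 22.5 CPM (log2 fold change -0.43, adjusted p = 0.000317). XPC, the damage sensor of nucleotide excision repair, was at 38.6 and 37.3 CPM in WT and 34.8 and 34.0 CPM in TMEM9 KD (adjusted p = 0.200). XPC shares 318 exon bases with LSM3 on the opposite strand, which had 1015 to 1328 counts, more than XPC itself (570 to 671). POLH, a polymerase that copies past damaged bases, was at 26.3 and 25.9 CPM in WT and 32.1 and 28.99 CPM in TMEM9 KD. A log2 fold change of 0.23 just missed the threshold (adjusted p = 0.0586) and passed it without TMEM9 KD replicate 2 (0.0229) and with scaling by library size only (0.0106).

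Among metabolic targets, SESN1 and FDXR fell by more than 2-fold. SESN1 (ENSG00000080546), a sestrin that restrains mTORC1, was at 25.3 and 28.7 CPM in WT and 10.6 and 9.40 CPM in TMEM9 KD (log2 fold change -1.43, SE 0.13, adjusted p = 2.32e-17). FDXR (ENSG00000161513), the mitochondrial ferredoxin reductase, was at 25.01 and 19.2 CPM in WT and 6.05 and 8.65 CPM in TMEM9 KD. The FDXR libraries were spread more widely within each group, yet the groups were well apart, with a log2 fold change of -1.58 (SE 0.1503, adjusted p = 2.78e-16). TIGAR, a phosphatase that slows glycolysis, was at 18.2 and 17.1 CPM in WT and 24.4 and 20.5 CPM in TMEM9 KD (log2 fold change 0.35, adjusted p = 0.0109). The TIGAR call ended without WT replicate 2 (adjusted p = 0.1303), without TMEM9 KD replicate 1 (0.156, log2 fold change 0.22) and with DESeq2 (0.0763). TP53I3, a quinone oxidoreductase, had overlapping groups at 10.4 and 12.9 CPM in WT and 12.6 and 14.3 CPM in TMEM9 KD (adjusted p = 0.235).

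The 3 remaining targets were all called lower, beside 29% of all genes. SUSD6 (ENSG00000100647), a membrane protein, was at 96.3 and 95.3 CPM in WT and 40.6 and 43.8 CPM in TMEM9 KD (log2 fold change -1.18, SE 0.0792, adjusted p = 7.91e-25). SPATA18 (ENSG00000163071), which acts in mitochondrial quality control, was the scarcest member in WT, with 34 and 26 counts (2.27 and 1.45 CPM). It had 1 and 4 counts in TMEM9 KD (0.0611 and 0.229 CPM). At this depth its log2 fold change of -3.57 (SE 0.618, adjusted p = 4.57e-07) was imprecise, and it ranged from -4.76 to -2.96 when single libraries were left out, the latter without TMEM9 KD replicate 1. ZMAT3, an RNA-binding protein, was at 55.9 and 48.9 CPM in WT and 43.5 and 44.7 CPM in TMEM9 KD (log2 fold change -0.25, adjusted p = 0.0124). The ZMAT3 call was lost without WT replicate 1 (adjusted p = 0.337, log2 fold change -0.15), with DESeq2 (0.0563) and with scaling by library size only (0.0846).

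Divided by exon length, the order of the members' levels differed between the groups, for genes that fell and for genes that rose or were not called. In WT the highest levels were those of PERP (72.0 ± 0.384 CPM per kilobase, SD, n = 2), SFN (69.3 ± 0.344), CCNG1 (44.7 ± 2.36), CDKN1A (42.7 ± 0.246) and PLK2 (25.9 ± 0.829). CCNG1 and CDKN1A, neighbours in that order, lay within the spread of CCNG1. In TMEM9 KD the order was SFN (78.5 ± 4.65 CPM per kilobase), PERP (45.4 ± 3.65), GADD45A (33.5 ± 2.39), CCNG1 (31.9 ± 2.54) and PLK2 (31.5 ± 1.32), the last 3 of which lay within their spread. CDKN1A stood at rank 4 of 31 in WT and at rank 9 in TMEM9 KD, with 8.57 ± 0.511 CPM per kilobase. TP63 went from rank 7 (20.9 ± 0.110) to rank 20 (4.36 ± 0.192), and PMAIP1 from rank 11 (13.3 ± 0.349) to rank 24 (2.66 ± 0.494). In the other direction, AEN went from rank 25 to 12, PLK3 from 27 to 16, TIGAR from 24 to 14, and the uncalled TP53I3 from 22 to 13 and POLH from 15 to 8. Ranks are relative, so a rank can rise when other members fall. The level of TP53I3 was 5.02 ± 0.760 in WT and 5.81 ± 0.515 CPM per kilobase in TMEM9 KD. That of POLH was 7.37 ± 0.0721 and 8.62 ± 0.615. The lowest levels in TMEM9 KD were those of TP73 (0.0135 ± 0.0192 CPM per kilobase) and SPATA18 (0.0294 ± 0.0241).

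Set against the elements printed above, the 6 members with a match did not move alike. TP73, MDM2, PMAIP1, SESN1 and FDXR fell, by log2 fold changes of -7.21, -0.53, -2.33, -1.43 and -1.58. AEN, with 2 mismatches like TP73 and MDM2, rose by 0.80. CDKN1A and BTG2 fell without a match in their window.

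Other reported p53 targets, a list of 45 genes that are not members, were also lower more often than higher. Of 44 tested, 28 fell and 6 rose, a called share of 77.3%, with a median log2 fold change of -0.32. Beside this, 57.7% of all genes were called, 28.7% higher and 29% lower. SERPINB5, the epithelial serpin maspin, fell from 46.8 ± 1.74 to 1.03 ± 0.246 CPM. SYTL1, a synaptotagmin-like protein, fell from 10.9 ± 0.818 to 0.235 ± 0.0730 CPM, and FUCA1, a lysosomal fucosidase, from 18.9 ± 0.424 to 3.22 ± 1.15 CPM. TRIM22, which restricts viruses, fell from 28.6 ± 0.274 to 8.39 ± 0.373 CPM. Death receptor genes fell too, with log2 fold changes of -0.90 for FAS and -0.90 for TNFRSF10B, and CYFIP2, a regulator of actin, rose by 1.73. Some genes of this list, among them SERPINB5, FUCA1 and TRIM22, are also known for other kinds of control than p53. The part of such control was not tested.

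No upstream regulator of p53 was called at 2-fold or more. Of 28 tested, 10 were higher and 7 lower, a called share of 60.7% beside 57.7% of all genes, with a median log2 fold change of 0.00 and a range from -0.60 to 0.63. CREBBP, an acetyltransferase that acts with p53, rose from 97.5 ± 0.910 to 150.6 ± 1.75 CPM. CHEK2 and CHEK1, kinases of the DNA damage checkpoint, fell from 39.8 ± 4.07 to 26.2 ± 1.06 CPM and from 56.8 ± 0.263 to 39.2 ± 3.32 CPM. PPP1R13L, an inhibitor of p53, fell from 52.6 ± 2.10 to 34.7 ± 4.58 CPM. MDM4, the partner of MDM2, fell by 0.27 on the log2 scale, ATM by 0.24, and ATR was not called (0.08). The counts fell to 5 higher and 3 lower without WT replicate 1, and to 5 and 4 without WT replicate 2. CDKN2A, which encodes the MDM2 inhibitor ARF, had 0 to 2 counts in every library and was not tested.

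Cell cycle genes that p21 is known to help repress rose more often than they fell, by less than 2-fold. Of 20 tested, 9 rose and 4 fell, with a median log2 fold change of 0.12. CDC20, an activator of the anaphase-promoting complex, rose from 244 ± 4.35 to 391 ± 13.4 CPM and CCNA2, cyclin A2, from 130.0 ± 7.39 to 189 ± 5.81 CPM. FOXM1, a transcription factor of the late cell cycle, rose from 126 ± 8.07 to 180.2 ± 11.6 CPM. CHEK1, also among the upstream regulators, fell by 0.54 on the log2 scale, while CDK1 and TOP2A fell by 0.37 and 0.28 and CCNB2 was not called (0.05). The called share was 65%, near the 57.7% of all genes.

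**Figure D4:**
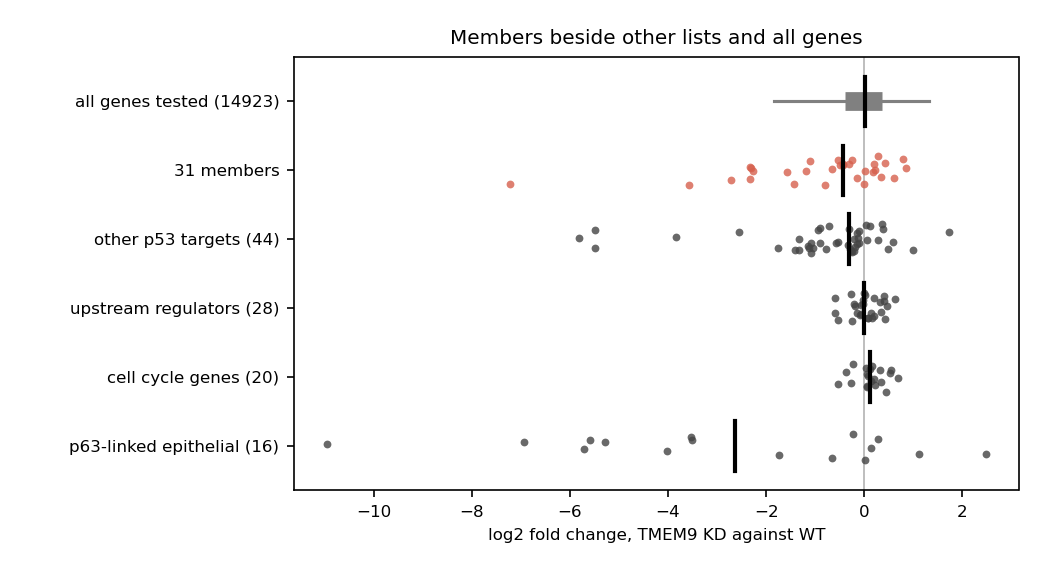
Log2 fold change of TMEM9 KD against WT for each tested gene of the members and of 4 further lists (points, scattered vertically for legibility), with the median of each list as a black line. For all 14923 genes the thin grey line spans the 5th to 95th percentile and the thick bar the middle 50%; the members' median is -0.43 and that of the p63-linked genes -2.63.

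The plot of lists places these values on a common scale. The members and the other p53 targets had medians below that of all genes, and those of the upstream regulators and of the cell cycle genes lay within 0.12 of 0. No difference between lists was tested.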

How the data were processed

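RNA from 4 libraries was analysed from the authors' deposited table of raw counts per Ensembl gene, with 2 libraries per group. Total RNA (1 ug per library, per the labels' protocols) was the input. The submitters' processing notes list hg19 and mm8 as builds, and as tools Bowtie 0.12.2 and CASAVA, with no role. For the counting tool, its annotation and its strand setting, nothing is given in the sources used here. Every column belonged to a sample, and symbols were found for 45038 genes.

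Groups were compared in edgeR 4.0.16 (R 4.3.3) by its quasi-likelihood test, after TMM scaling and the default filterByExpr filter (counts of 10, total of 15), with group as the only term and Benjamini-Hochberg adjustment over the 14923 genes tested, at a threshold of 0.05. The fit had 2 residual degrees of freedom and a common biological coefficient of variation of 0.0498. Each SE was taken as the size of the log2 fold change divided by the root of its F statistic. The fit was tested on simulated data. Exon lengths and overlaps are from GENCODE 29, used without printing its coordinates, and also to limit exon bases in the printed promoter stretches. Replicates of a group differed beyond sampling noise (chi-square over degrees of freedom 2.04 for WT and 4.82 for TMEM9 KD) and each was kept.

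The members and lists were chosen with earlier results of these data known. Every member was to be named. From each other list the rule took up to 4 called genes of at least 5 CPM with the largest change, and the further genes named from the lists were chosen after their values were seen. Alternatives were other scaling, filters and tests (DESeq2 1.42.0, limma voom 3.58.1, edgeR against 1.5-fold), the replicate number as a block, and each library left out in turn.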

Additional observations from a re-analysis of the deposited data

How the results depend on the processing

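Over 13 alternatives, 14 of the 25 called members kept their call and direction in every alternative that tested them, and 3 of the 6 others stayed uncalled with the same sign. Tested against 1.5-fold, which asks for a larger change, members called higher went from 7 to 2, while genes went from 4283 to 1111 higher and from 4335 to 1692 lower. Of the other p53 targets, 2 were then higher and 16 lower. In that edgeR test the upstream regulators had 0 higher and 0 lower, and the same at unadjusted p under 0.05. The cell cycle genes had 0 and 0, with 1 higher and 0 lower unadjusted. The edgeR test without that margin called 10 and 7, and 9 and 4. With DESeq2, 5 members were higher and 17 lower. Scaling by library size only gave 4 lower upstream regulators instead of 7, and the log2 fold change of PPM1D turned to 0.0706. Leaving out 1 library gave 5 to 7 members higher and 16 to 18 lower, and members' medians from -0.523 to -0.415. Genes then numbered 3172 to 4173 higher and 3450 to 4405 lower, and upstream regulators 5 to 10 higher and 3 to 9 lower. With single libraries left out PPM1D ran from -0.0836 to 0.0724, turning sign without WT replicate 1 (0.0457) or TMEM9 KD replicate 2, and BAX from -0.0322 (without WT replicate 1) to 0.0371. A fit that leaves 1 library in a group assumes that it varies like the others. The labels number the libraries 1 and 2 in both groups, but same-numbered deviations did not correlate (r = -0.000904 over 10824 genes). With the replicate block, 7 members were higher and 18 lower, with 4171 genes higher and 4266 lower. The SE was largest for SPATA18 (0.618), TP73 (0.376) and TP53INP1 (0.291), which had 1 and 4, 3 and 0, and 15 and 26 counts in the TMEM9 KD libraries.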
